A study of Mus musculus with 30 samples.

Results

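This account concerns retinas of mouse pups that received CD34+ cells in the vitreous at postnatal day 5 (P5), set against retinas of pups that received saline at the same age. By their sample titles, 6 of the 30 arrays of the series belong to this comparison, 3 from P5 CD34 retinas and 3 from P5 saline retinas, and all genes on them were tested. All 6 pups went through oxygen-induced retinopathy (OIR), a model of retinopathy of prematurity: from P7 they were kept with their nursing dams in 75% oxygen for 5 days. The injection, 10000 CD34+ cells or saline, thus came before the oxygen. The species and tissue of origin of the cells are not given in the labels, and the strain and sex of the pups are not given either. Other groups used here, with 3 arrays each, were P5 ECFC (100000 endothelial colony-forming cells), P5 combination (110000 cells of both kinds), P12 CD34 (10000 cells), P12 saline, untreated OIR and untreated normoxia. Each array held RNA of 1 retina of 1 pup. Every label gives the stage as P17, while the series design text pairs injection at P5 with collection at P12, so the collection day is not settled, but it is the same statement for both P5 groups.

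CD34 is a surface glycoprotein of blood stem and progenitor cells and of endothelium, and CD34+ cells are studied as a cell therapy because they home to damaged vessels. In OIR, high oxygen stops vessel growth and removes capillaries of the central retina, and the retina becomes hypoxic once back in room air. The retina has 3 layers of neurons: photoreceptors, then bipolar, horizontal and amacrine cells, and innermost the ganglion cells, whose axons form the optic nerve. Müller glia and microglia respond to injury of these neurons. Pigment genes are carried by the pigment epithelium behind the retina and by melanocytes of the choroid and iris, and the lens lies next to the vitreous, so RNA of both tissues can come along in a dissection.

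Levels below are the authors' normalized log2 values, and a difference is the P5 CD34 mean minus the P5 saline mean ± SE of the fit. A gene passed at a Benjamini-Hochberg adjusted p under 0.05 over 12393 genes in limma, fitted over all 30 arrays. The fit pools the spread of all groups, so SE and p can be too small for groups that vary more, such as P5 CD34. The 3 CD34 arrays differed among themselves more than the arrays of any other group: the median SD over genes was 0.188, the highest of 10 groups (lowest 0.102), and 265 genes had an SD over 1, against 117 in P5 saline. CD34 replicate 1 lay more than 1 log2 unit from the saline mean for 934 genes, replicate 2 for 263 and replicate 3 for 275. By that measure 29 genes lay above on all 3 CD34 arrays and 0 lay below. The lens gene mean (16 genes) was 7.64, 13.52 and 13.43 on CD34 replicates 1, 2 and 3, against 13.24, 12.84 and 10.56 in saline. Xist, which only female cells transcribe, was 4.62, 12.32 and 12.39 in CD34, against 5.70, 12.14 and 4.97 in saline, so the groups differed in how many arrays had it high. Results are therefore given with the values of each array and with what leaving out an array did.

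In all, 1049 of 12393 genes passed (8.46%): 380 were higher in CD34 retinas (3.07%) and 669 lower (5.4%). Of these, 93 were at least 2-fold higher and 66 at least 2-fold lower. For 2315 genes (18.7%) the 3 CD34 arrays all lay beyond the 3 saline arrays, 919 of them above (7.42%) and 1396 below (11.3%), whether or not they passed, and 7.06% of genes both passed and did not overlap (2.61% higher, 4.45% lower). Genes of ganglion, bipolar and amacrine cells were among those that fell, and pigment, matrix, protein-folding and phagocyte genes among those that rose. The count depended on the arrays used: it was 461 without saline replicate 3 and 682 without CD34 replicate 1, and 295 genes passed in each of the 6 fits that left out 1 array, 77 higher and 218 lower. Calls higher were 304, 567 and 380 without CD34 replicates 1, 2 and 3, and 294, 332 and 155 without saline replicates 1, 2 and 3. Calls lower were 378, 887 and 453, and 709, 405 and 306, in the same order. List counts below are to be read beside these counts and the shares above. Whether a list moved more than all genes when an array was left out was not tested. With only these 6 arrays in the fit, 0 genes passed in limma (smallest adjusted p 0.293), although 1404 had an unadjusted p under 0.05, against 2796 in the fit of all arrays.

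**Figure D1:**
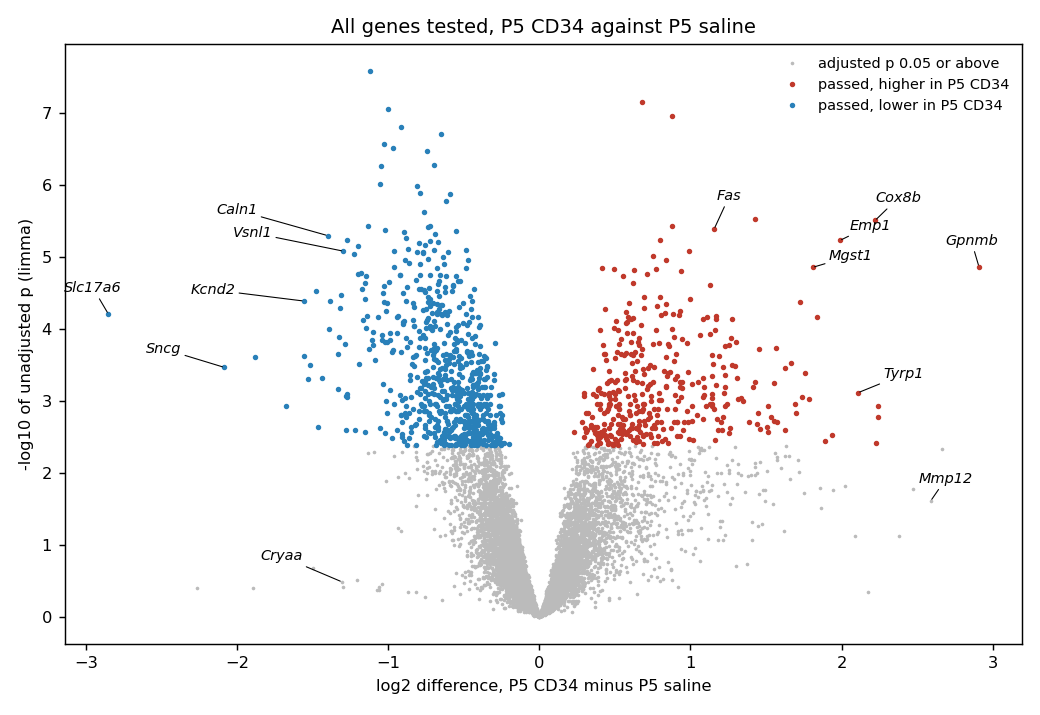
Each point is a gene, with the log2 difference, P5 CD34 minus P5 saline, on the horizontal axis and -log10 of limma's unadjusted p on the vertical axis; red points passed and were higher in P5 CD34 (380), blue points passed and were lower (669), and gray points did not pass. Gpnmb and Slc17a6 lie farthest out among the genes that passed, and the lens gene Cryaa and the protease gene Mmp12 have large differences without passing.

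Ganglion cell genes had the most calls of the neuronal lists. Of 14 measured ganglion cell markers, 13 fell in CD34 retinas and 0 rose, against 5.4% lower among all genes, and the median difference of the 14 was -1.22, against -0.03 over all genes. For 4 of the 14 no array overlapped between the groups, against 6 of 10 bipolar, 6 of 14 amacrine and 9 of 14 synaptic genes, and on CD34 replicate 2 the median difference from the saline mean was -0.17. Slc17a6, the vesicular glutamate transporter that ganglion cells use, was at 5.49, 9.76 and 6.71 in CD34 replicates 1, 2 and 3, against 9.67, 10.38 and 10.47 in saline. It fell by 2.85 ± 0.59 (7.23-fold lower, adjusted p = 0.0050), and the groups overlapped because CD34 replicate 2 lay just above saline replicate 1. The file gives no detection calls, so the fold is uncertain where a level is as low as on CD34 replicate 1. In RNA of whole retinas, fewer cells of a type and less RNA per cell cannot be told apart.

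Structural genes of ganglion cell axons followed the same array pattern. Stmn2, which codes a microtubule regulator of growing axons, was at 9.02, 10.56 and 9.40 in CD34, against 10.70, 11.27 and 11.16 in saline, with no overlap (difference -1.38 ± 0.28, adjusted p = 0.0043). Rbpms, an RNA-binding protein found in nearly all ganglion cells, was at 7.97, 9.29 and 8.16 in CD34, against 9.44, 9.77 and 9.71 in saline (-1.17 ± 0.24, adjusted p = 0.0053). Gap43, a growth cone protein, was at 8.95, 9.88 and 9.23 in CD34, against 10.07, 10.72 and 10.69 in saline (-1.14 ± 0.24, adjusted p = 0.0051). In each of these genes replicates 1 and 3 were far below the saline arrays and replicate 2 came closest to them. Neurofilament light chain, Nefl, had 10.33, 13.22 and 11.85 in CD34, against 13.20, 13.32 and 13.44 in saline (-1.52 ± 0.36, adjusted p = 0.0112), and without CD34 replicate 1 the difference was -0.78 (adjusted p = 0.0379). Sncg, gamma-synuclein, had 8.02, 11.53 and 9.17 in CD34, against 11.32, 11.87 and 11.79 in saline (-2.09 ± 0.50, adjusted p = 0.0117). Its call was lost without CD34 replicate 1, at -1.31 (adjusted p = 0.0808).

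The calls for the surface glycoprotein Thy1 (-1.28 ± 0.33) and for the neurofilament medium chain Nefm (-1.68 ± 0.45) were weaker. Thy1 lost its call without CD34 replicate 1 (adjusted p = 0.1328), CD34 replicate 3 (0.0753), saline replicate 2 (0.0677) or saline replicate 3 (0.0828), and its difference was -1.93 without CD34 replicate 2. Nefm lost its call without the same 4 arrays, at adjusted p = 0.1645, 0.0746, 0.0721 and 0.0932 in that order, and its difference was -0.98 without CD34 replicate 1 and -2.54 without CD34 replicate 2. The subtype genes Opn4, the photopigment melanopsin (-0.65 ± 0.20, adjusted p = 0.0479), Isl2, a transcription factor of ganglion cell subtypes (-0.65 ± 0.20, 0.0414), Chrna6, a nicotinic receptor subunit (-1.33 ± 0.34, 0.0173), Ebf3, a transcription factor (-0.67 ± 0.16, 0.0138), and Nefh, the neurofilament heavy chain (-0.91 ± 0.26, 0.0284), also fell. Pou4f3, a ganglion cell transcription factor, was the measured member that did not pass (-0.58 ± 0.20, adjusted p = 0.0778). It passed without CD34 replicate 2 (0.0314) or saline replicate 1 (0.0275). Opn4 kept its call only without CD34 replicate 2 (difference -1.04), and its adjusted p was 0.0897 to 0.2371 without each of the other 5 arrays. Isl2, Chrna6 and Nefh kept theirs only without CD34 replicate 2 or saline replicate 1, with the highest adjusted p without CD34 replicate 1 (0.2438, 0.1201 and 0.1453), where Isl2 differed by -0.41 and Chrna6 by -0.85. Ebf3 lost its call without CD34 replicate 1 (0.0869), saline replicate 2 (0.0697) or saline replicate 3 (0.0563).

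For the list as a whole, 5 of 14 members were called lower without CD34 replicate 1, 14 without replicate 2 and 7 without replicate 3. Without saline replicates 1, 2 or 3 the counts were 13, 6 and 6. With the lens gene mean as a covariate 12 members were called lower. Across the other 27 arrays of the series, Slc17a6 was never below 9.06 (median 10.31) and Stmn2 never below 10.22 (median 10.78), and 2 of the 3 CD34 arrays lay below all of them for both genes.

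**Figure D2:**
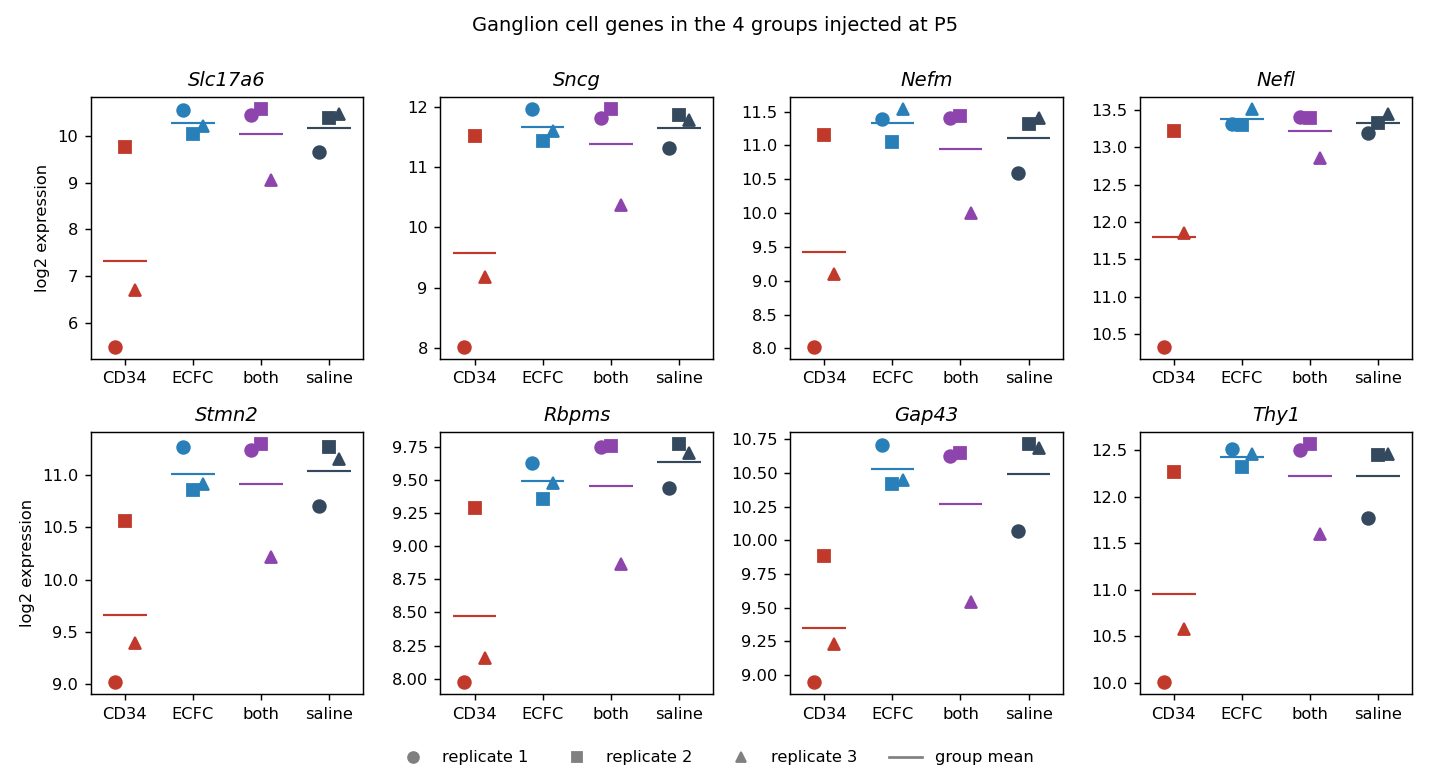
Log2 expression of 8 ganglion cell genes on each array of the 4 groups injected at P5 (CD34, ECFC, both cell kinds together, saline); marker shapes give the replicate and lines the group mean. CD34 replicates 1 and 3 lie below every other array shown for each gene, while CD34 replicate 2 lies near the saline arrays, and combination replicate 3 is the lowest array outside the CD34 group.

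Genes of the inner nuclear layer fell as well, by less. Of 10 measured bipolar cell markers 8 fell, with a median difference of -0.68, against 5.4% lower among all genes. Pcp2, a G-protein modulator of ON bipolar cells, was at 10.35, 11.15 and 11.02 in CD34, against 11.42, 11.75 and 11.73 in saline, without overlap (-0.79 ± 0.15, adjusted p = 0.0029). Prkca, the protein kinase that marks rod bipolar cells, was at 10.78, 10.94 and 10.998 in CD34, against 11.17, 11.62 and 11.54 in saline (-0.54 ± 0.10, adjusted p = 0.0033). Both were lower on every CD34 array, replicate 2 included. Neto1, a glutamate receptor auxiliary subunit, was at 6.76, 8.34 and 7.91 in CD34, against 8.61, 8.74 and 8.72 in saline (-1.02 ± 0.23, adjusted p = 0.0076), and its difference was -0.57 without CD34 replicate 1 (adjusted p = 0.0236). Trpm1, the cation channel of ON bipolar cells, moved the other way and is described with the pigment genes, since melanocytes also transcribe it. The count of bipolar genes called lower was 3 without CD34 replicate 1 and 4 without saline replicate 2 or 3.

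Of 14 amacrine cell markers 6 fell and 0 rose, with a median difference of -0.53, against 5.4% lower among all genes. Tfap2b, a transcription factor of amacrine and horizontal cells, was at 9.62, 9.77 and 9.87 in CD34, against 10.33, 10.51 and 10.50 in saline (-0.69 ± 0.12, adjusted p = 0.0023). Dab1, the reelin adaptor of AII amacrine cells, was at 9.76, 10.18 and 10.30 in CD34, against 10.62, 10.85 and 10.70 in saline (-0.64 ± 0.11, adjusted p = 0.0025). Gad2, which makes the transmitter GABA, was at 8.39, 9.34 and 8.96 in CD34, against 9.77, 9.77 and 9.85 in saline (-0.90 ± 0.19, adjusted p = 0.0054). No array overlapped between the groups for these 3 genes, and all 3 calls held without any single array. The other Dab1 probe sets had smaller differences, from -0.46 to -0.23, and none passed. The amacrine list had 3 genes called lower without CD34 replicate 1 or saline replicate 3, 4 without saline replicate 2 and 11 without CD34 replicate 2. Horizontal cell markers, 6 measured, had 1 lower, Tfap2b again.

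Of 14 synaptic vesicle and receptor genes 8 fell and 0 rose, with a median of -0.40, against 5.4% lower among all genes. The AMPA receptor subunit genes Gria2 and Gria4 fell by 0.83 ± 0.18 (adjusted p = 0.0058) and 0.75 ± 0.15 (adjusted p = 0.0037), each without overlap, and the difference of Gria2 was -0.51 without CD34 replicate 1. Another Gria2 probe set differed by -0.49 and did not pass. The count of the synaptic list was 5 without CD34 replicate 1 or 3 or saline replicate 2, and 3 without saline replicate 3. Rod and cone genes, in contrast, gave no call: 0 of 16 rod markers and 0 of 11 cone markers passed, with medians of 0.02 and 0.11, and 0 of 16 Müller glia markers passed either. In limma 2, 0 and 4 of these genes had an unadjusted p under 0.05. The rod gene nearest to passing was Rp1, which codes an outer segment protein (0.30 ± 0.12, adjusted p = 0.1435).

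**Figure D3:**
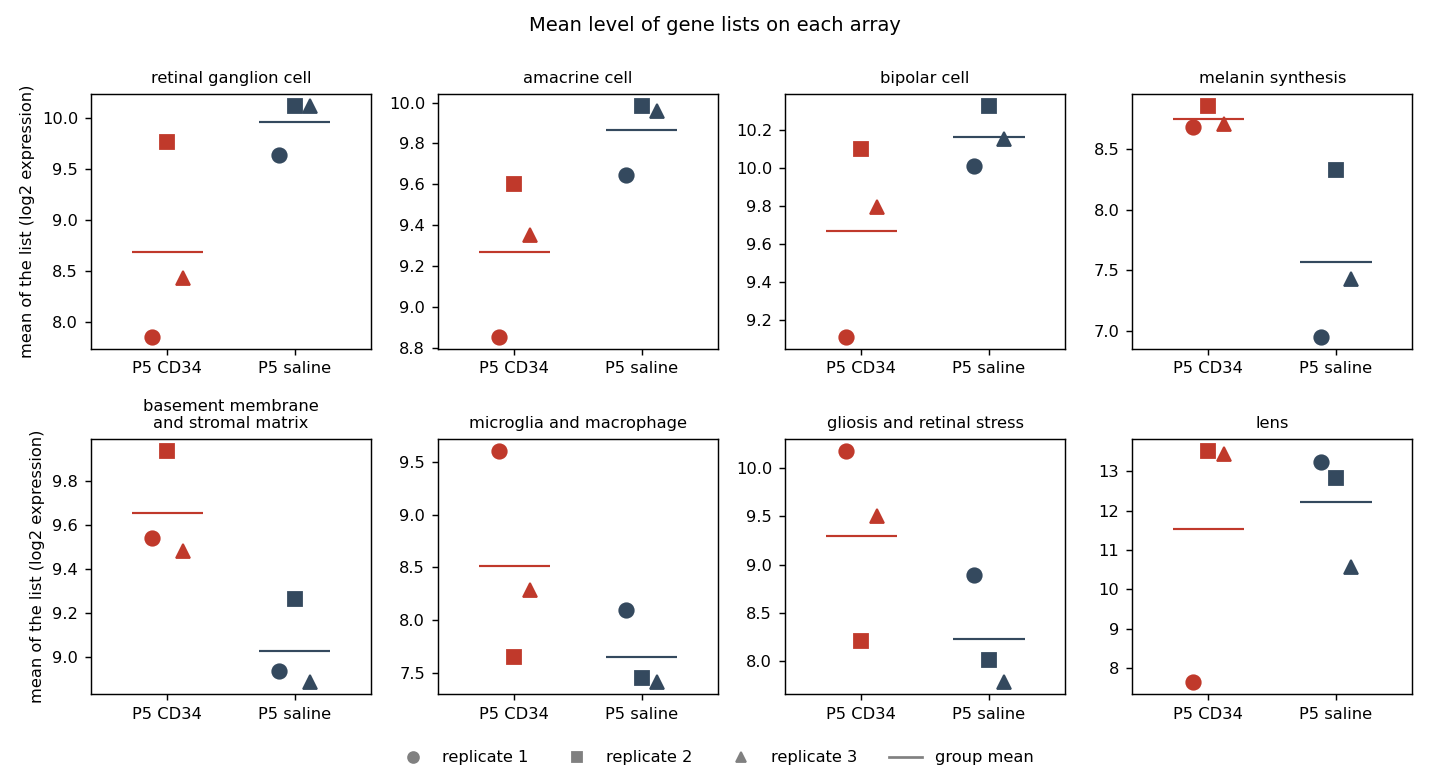
Mean log2 expression of the measured genes of 8 lists on each P5 CD34 and P5 saline array; marker shapes give the replicate and lines the group mean, and each panel has its own vertical axis. Ganglion and gliosis means single out CD34 replicates 1 and 3, melanin and matrix means lie above saline on all 3 CD34 arrays, and the lens mean separates CD34 replicate 1 (7.64) from the other CD34 arrays (13.52 and 13.43).

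Among genes that passed and whose arrays did not overlap, the 12 largest falls were Tmem163, Kcnd2, Hapln1, Fkbp1b, Caln1, Nell2, Stmn2, Tfap2d, Cdk14, Cacng5, Vsnl1 and Htr1b, with differences from -1.88 to -1.29. Tmem163, a zinc transporter of synaptic vesicles, was at 6.29, 9.21 and 7.38 in CD34, against 9.29, 9.67 and 9.57 in saline (-1.88 ± 0.44, adjusted p = 0.0095). Kcnd2, the potassium channel Kv4.2, was at 6.17, 8.04 and 6.69 in CD34, against 8.08, 8.85 and 8.65 in saline (-1.56 ± 0.31, adjusted p = 0.0043). Caln1, a neuronal calcium-binding protein, was at 6.68, 7.62 and 6.89 in CD34, against 8.33, 8.52 and 8.54 in saline (-1.40 ± 0.24, adjusted p = 0.0022). Replicate 2 was again the CD34 array nearest to saline in all 12 genes. Vsnl1, the neuronal calcium sensor visinin-like 1, was at 10.31, 11.86 and 10.99 in CD34, against 12.30, 12.35 and 12.41 in saline (-1.30 ± 0.23, adjusted p = 0.0023). The call for Tmem163 was lost without CD34 replicate 1 (adjusted p = 0.0655), that for Htr1b, a serotonin receptor, without the same array (0.0520), and that for Hapln1, a link protein of the hyaluronan matrix around neurons, without saline replicate 3 (0.0668). The call for Tfap2d, a transcription factor, held without CD34 replicate 1 at a smaller difference of -0.86, against -1.33 with it. Vipr2, a receptor for vasoactive intestinal peptide and chosen after its values were seen, had the smallest adjusted p of all genes (3.29e-04) and was at 8.85, 9.57 and 9.47 in CD34, against 10.44, 10.41 and 10.40 in saline.

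The largest rise among genes that passed without overlap was that of Gpnmb, a glycoprotein of melanosomes and of lipid-laden phagocytes. It was at 12.63, 10.52 and 10.28 in CD34, against 7.66, 9.45 and 7.58 in saline, a difference of 2.91 ± 0.53 (7.51-fold, adjusted p = 0.0028) with no overlap. Each CD34 array lay above all 27 other arrays of the series, whose highest value was 9.55. Cox8b, a respiratory chain subunit best known from muscle and brown fat, was at 11.41, 9.71 and 10.65 in CD34, against 7.72, 9.10 and 8.28 in saline (2.22 ± 0.37, adjusted p = 0.0020). Mgst1, a membrane glutathione transferase, was at 9.77, 9.70 and 9.60 in CD34, against 7.69, 8.74 and 7.22 in saline (1.81 ± 0.33, adjusted p = 0.0028). The 3 CD34 values of Mgst1 lay close together while saline varied, the reverse of the ganglion cell pattern. Emp1, an epithelial membrane protein, was at 9.54, 8.83 and 7.18 in CD34, against 6.38, 6.75 and 6.45 in saline (1.99 ± 0.34, adjusted p = 0.0022). Fmod, the collagen-binding proteoglycan fibromodulin, was at 12.13, 11.09 and 11.05 in CD34, against 9.34, 10.13 and 9.28 in saline (1.84 ± 0.38, adjusted p = 0.0051). These 5 calls held without any single array. Another Mgst1 probe set, at a low mean level of 4.53, differed by 0.095 and did not pass.

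The 12 largest rises also held Serping1, the C1 inhibitor (2.24 ± 0.63), Fbln1, a basement membrane glycoprotein (2.24 ± 0.61), Lgals3, the phagocyte lectin galectin-3 (2.23 ± 0.70), S100a6, a calcium-binding protein of reactive glia (1.89 ± 0.58), Col1a1 (1.94 ± 0.58), Tyrp1 and Dct. Their calls were less secure. Serping1 lost its call without CD34 replicate 1 (difference 1.40, adjusted p = 0.1923), CD34 replicate 3 (0.0592), saline replicate 2 (0.0659) or saline replicate 3 (0.1111). Fbln1 lost it without CD34 replicate 1 (0.0705), CD34 replicate 3 (0.0600), saline replicate 1 (difference 1.45, 0.1361) or saline replicate 3 (0.0683). Lgals3 lost it without CD34 replicate 1 (difference 1.14, 0.3087), saline replicate 2 (0.0960) or saline replicate 3 (0.1947). S100a6 kept it only without saline replicate 1, and its difference was 1.204 without saline replicate 3 (0.2562), with adjusted p from 0.0772 to 0.0918 without each of the other 4 arrays.

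**Figure D4:**
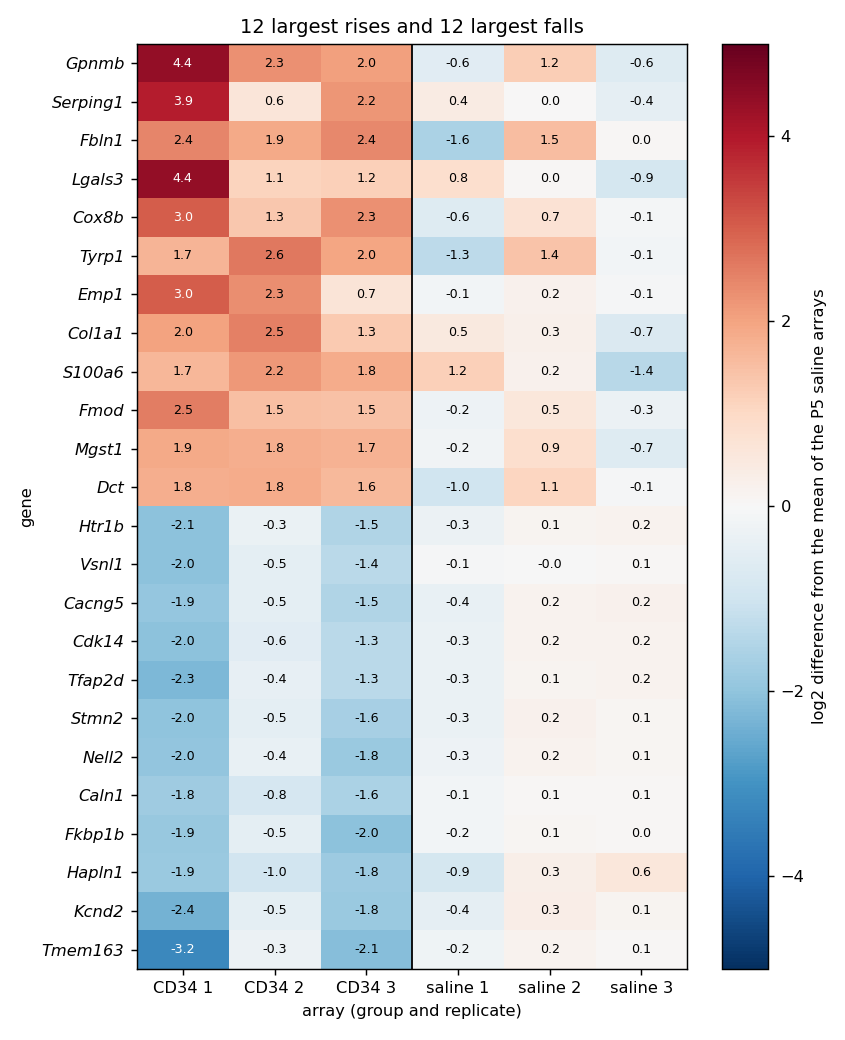
Colours and printed values give, for each of the 12 largest rises and 12 largest falls among genes that passed without overlap, the log2 difference of each P5 CD34 and P5 saline array from the mean of the P5 saline arrays. The falls are strongest on CD34 replicate 1, except for Fkbp1b, where replicate 3 is lowest, and they are smallest on replicate 2. The rises are positive on all 3 CD34 arrays, and the pigment genes Tyrp1 and Dct differ among the saline arrays too.

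Melanin genes rose as a group. Of 9 measured, 6 rose and 0 fell, against 3.07% higher among all genes, with a median difference of 1.31. Tyr, tyrosinase, the rate-limiting enzyme of melanin synthesis, was at 8.53, 8.50 and 8.49 in CD34, against 5.85, 7.87 and 7.09 in saline (1.57 ± 0.35, adjusted p = 0.0084). Tyrp1, a melanosomal oxidase, was at 10.23, 11.16 and 10.51 in CD34, against 7.23, 9.94 and 8.40 in saline (2.11 ± 0.55, adjusted p = 0.0187). Dct, dopachrome tautomerase, was at 12.25, 12.28 and 12.05 in CD34, against 9.43, 11.50 and 10.36 in saline (1.76 ± 0.43, adjusted p = 0.0130). All 3 CD34 arrays lay above every saline array for these 3 genes, and also above the other 24 arrays of the series. Pmel, the melanosome fibril protein (1.74 ± 0.46, adjusted p = 0.0199), Trpm1 (1.31 ± 0.35, 0.0206) and Gpr143, a melanosome receptor (0.85 ± 0.27, 0.0479), were the other 3 called members. Mitf, the transcription factor that switches on pigment genes, rose by 0.76 ± 0.18 (adjusted p = 0.0116). Another Mitf probe set differed by 0.30 and did not pass.

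The pigment calls leaned on saline replicate 1, the lowest saline array for Tyr, Tyrp1, Dct and Pmel: 1 member was called without it, 2 without saline replicate 3, and 4 to 6 without each of the others. Tyr kept its call throughout, with a difference of 1.03 without saline replicate 1. Dct lost it without saline replicate 1 (adjusted p = 0.0718), Tyrp1 without saline replicate 1 (0.1015), CD34 replicate 2 (0.0517) or saline replicate 3 (0.0662), and Mitf without saline replicate 3 (0.0675). Pmel lost it without saline replicate 1 (difference 1.11, 0.1175), CD34 replicates 2 (0.0644) or 3 (0.0544), or saline replicate 3 (0.0882), and Trpm1 without CD34 replicate 2 (0.0874), saline replicate 1 (0.0827) or saline replicate 3 (0.1270). Gpr143 kept it only without CD34 replicate 2, with adjusted p from 0.0665 to 0.2587 without each other array and a difference of 0.54 without CD34 replicate 1. Of 13 other pigment epithelium markers only Mitf rose, and their mean was 10.35, 9.40 and 9.73 in CD34, against 8.75, 9.85 and 9.57 in saline, so the groups overlapped. Rpe65, the visual cycle isomerase of the pigment epithelium, was at 10.53, 9.15 and 9.90 in CD34, against 7.96, 10.23 and 10.01 in saline. The part of carried-over pigmented tissue in the rise of the pigment genes was not tested.

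Because called pigment genes rose along with Mitf, the bases before the start sites of 4 of them are shown here. MITF protein binds the core CATGTG of the M-box, which reads CACATG on the other strand. In the RefSeq table for GRCm38.p6, 6 of the 9 measured pigment genes had an entry, with 8 windows of 250 bases before a start, of which 5 held the core on either strand. Besides the 4 windows shown, the core was in that of Oca2, a measured pigment gene that did not pass. Over all genes 4025 of 32851 such windows held it (12.3%). Each window below is given 5′ to 3′ on the gene's own strand, with the core in capitals. The windows are chr4:80833963-80834212 (plus strand) for Tyrp1, chr14:118052247-118052496 (minus strand) for Dct, chr7:87493513-87493762 (minus strand) for Tyr and chr7:64153585-64153834 (plus strand) for Trpm1.
Tyrp1: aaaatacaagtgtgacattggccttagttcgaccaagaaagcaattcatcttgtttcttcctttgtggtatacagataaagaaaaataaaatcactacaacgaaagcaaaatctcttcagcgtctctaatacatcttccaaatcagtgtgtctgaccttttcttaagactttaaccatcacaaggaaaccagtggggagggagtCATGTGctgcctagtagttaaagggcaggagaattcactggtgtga
Dct: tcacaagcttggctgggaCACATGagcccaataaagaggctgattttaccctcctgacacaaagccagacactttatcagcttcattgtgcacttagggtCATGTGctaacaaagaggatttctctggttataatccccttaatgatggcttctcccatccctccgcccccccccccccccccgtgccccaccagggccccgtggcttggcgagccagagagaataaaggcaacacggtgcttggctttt
Tyr: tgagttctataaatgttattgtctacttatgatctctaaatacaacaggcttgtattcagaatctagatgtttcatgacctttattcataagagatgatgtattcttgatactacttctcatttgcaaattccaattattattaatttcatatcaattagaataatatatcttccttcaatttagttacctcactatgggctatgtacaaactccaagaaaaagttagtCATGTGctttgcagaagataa
Trpm1: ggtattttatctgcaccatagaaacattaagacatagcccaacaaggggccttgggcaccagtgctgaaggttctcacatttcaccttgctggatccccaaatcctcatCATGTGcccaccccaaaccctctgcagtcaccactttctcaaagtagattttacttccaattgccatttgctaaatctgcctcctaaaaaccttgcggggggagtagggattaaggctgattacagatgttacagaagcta
Counted from the start site, the core began at -46 in Tyrp1, at -21 in Tyr, at -141 in Trpm1, and at -232 and -150 in Dct. A second annotated start of Trpm1 held no match in its window. A match describes these letters only and does not show binding, and a part of MITF in the rise was not tested.

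The mean of matrix genes was above saline on all 3 CD34 arrays. Of 25 basement membrane and stromal matrix genes 10 rose and 0 fell, with a median of 0.44, against 3.07% higher among all genes. The fibrillar collagen genes were among them: Col1a1 was at 10.25, 10.73 and 9.52 in CD34, against 8.70, 8.49 and 7.4985 in saline (adjusted p = 0.0405). Col5a1 was at 8.78, 8.80 and 8.87 in CD34, against 7.65, 8.38 and 7.60 in saline (0.94 ± 0.21, adjusted p = 0.0073). Serpinh1, the collagen chaperone HSP47, was at 11.10, 11.03 and 10.62 in CD34, against 9.68, 10.33 and 10.08 in saline (0.89 ± 0.18, adjusted p = 0.0050). Postn, the matricellular protein periostin, was at 8.31, 8.13 and 7.71 in CD34, against 7.18, 7.21 and 7.08 in saline (0.89 ± 0.20, adjusted p = 0.0071). No array overlapped between groups for these 4 genes. Genes of basement membranes were divided: Nid2 (0.80 ± 0.23, adjusted p = 0.0318), Col15a1 (0.90 ± 0.22, 0.0146) and Col18a1 (1.14 ± 0.30, 0.0203) rose, while Col4a1 (0.18 ± 0.24), Col4a2 (0.08 ± 0.29), Lama4 (-0.12 ± 0.20) and Nid1 (0.39 ± 0.38) did not pass. The 15 members of the list that did not pass ranged from -0.43 to 1.31. Nid2 and Col15a1 lost their calls without CD34 replicate 1 (adjusted p = 0.1194 and 0.0866), saline replicate 1 (0.1708 and 0.0646) or saline replicate 3 (0.0729 and 0.0770), and Col18a1 without saline replicate 1 (0.1180) or saline replicate 3 (0.0540). Without saline replicate 1 the differences of Nid2 and Col18a1 were 0.53 and 0.74. The calls of Col5a1, Serpinh1 and Postn held without any single array, whereas Col1a1 lost its call without CD34 replicate 1 (0.0981), CD34 replicate 2 (0.1097), saline replicate 2 (0.0667) or saline replicate 3 (0.1723). Other Col5a1 probe sets differed by 0.45 and 0.49 and did not pass. The list had 4 genes called higher without saline replicate 3 and 6 without saline replicate 1, and 8 higher and 1 lower without CD34 replicate 2.

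Of 10 genes of insulin-like growth factor signalling 3 rose, all of them binding proteins, against 3.07% higher among all genes. Igfbp6 was at 7.36, 7.64 and 7.61 in CD34, against 6.83, 6.82 and 6.94 in saline (0.68 ± 0.15, adjusted p = 0.0086), a call that held without any single array. Igfbp2 was at 11.35, 10.18 and 9.92 in CD34, against 9.20, 9.61 and 8.996 in saline (1.21 ± 0.29, adjusted p = 0.0116). Its call was lost without CD34 replicate 1 (difference 0.78, 0.0811) or saline replicate 3 (0.0625). Igfbp4 (0.54 ± 0.17, adjusted p = 0.0435) kept its call only without saline replicate 2, with adjusted p from 0.0563 to 0.2298 without each other array and a difference of 0.33 without saline replicate 1. The growth factor genes Igf1 and Igf2 differed by -0.13 and 0.15 and did not pass.

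The means of microglia and gliosis genes were highest on CD34 replicate 1, lower on replicate 3 and within the range of the saline arrays on replicate 2, while that of phagocyte genes lay above saline on all 3 CD34 arrays. The mean of 21 microglia and macrophage genes was 9.60, 7.65 and 8.28 in CD34, against 8.10, 7.46 and 7.41 in saline. Of them 3 rose, against 3.07% higher among all genes. They were Aif1, which codes IBA1 (1.23 ± 0.34, adjusted p = 0.0236), C1qb, a complement C1q chain (1.26 ± 0.38, 0.0389), and Csf1r, the receptor that microglia need to survive (0.99 ± 0.30, 0.0440). The number called higher was 0 without CD34 replicate 1, saline replicate 2 or saline replicate 3, 2 without CD34 replicate 3, 9 without saline replicate 1 and 15 without CD34 replicate 2. The differences without CD34 replicate 1 were 0.80 for Aif1 (adjusted p = 0.1606), 0.74 for C1qb (0.2454) and 0.53 for Csf1r (0.2817). Cx3cr1, the fractalkine receptor, was at 8.21, 6.81 and 7.30 in CD34, against 7.21, 6.87 and 6.78 in saline, and did not pass (0.49 ± 0.23, adjusted p = 0.2211). Lyve1, a hyaluronan receptor of perivascular macrophages and lymphatic vessels, fell. It was at 7.84, 8.32 and 8.16 in CD34, against 8.86, 8.79 and 9.04 in saline (-0.79 ± 0.14, adjusted p = 0.0027), and this call held without any single array. Another Lyve1 probe set differed by -0.38 and did not pass.

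Of 23 lysosome and lipid phagocyte genes 5 rose, Gpnmb, Lgals3, Ctsz, Lipa and Abca1, and 0 fell (median 0.74), against 3.07% higher among all genes. The list mean was 10.89, 9.17 and 9.33 in CD34, against 8.99, 8.89 and 8.69 in saline. The count was 1 without CD34 replicate 1 or saline replicate 3, 3 without saline replicate 2, 7 without CD34 replicate 3 or saline replicate 1, and 17 without CD34 replicate 2. Without CD34 replicate 1 the differences were 0.50 for Ctsz (adjusted p = 0.0513), 0.44 for Lipa (0.0842) and 0.45 for Abca1 (0.2543), and Abca1 kept its call only without CD34 replicate 2. Mmp12, the macrophage elastase, was at 11.60 on CD34 replicate 1 alone, with 4.65 and 4.94 on replicates 2 and 3, against 4.74, 4.30 and 4.38 in saline (2.59 ± 1.08, adjusted p = 0.1455). It passed without CD34 replicate 2 (0.0252), and without CD34 replicate 1 its difference was 0.32. Complement genes had 2 of 15 called higher, Serping1 and C1qb, with 0 without CD34 replicate 1, CD34 replicate 3 or saline replicate 3, 3 without saline replicate 1 and 9 without CD34 replicate 2. Of 27 interferon and antigen presentation genes 1 rose, against 3.07% higher among all genes. It was Ifitm3, a membrane antiviral protein (1.22 ± 0.32, adjusted p = 0.0187), whose call was lost without CD34 replicate 1 (0.1062), saline replicate 2 (0.0533) or saline replicate 3 (0.0778). Chemokine and cytokine genes had 0 of 21 called in limma, with 3 at an unadjusted p under 0.05.

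Gliosis genes gave few calls despite large differences. Gfap, the intermediate filament of reactive Müller glia and astrocytes, was at 11.76, 8.69 and 10.95 in CD34, against 10.78, 7.96 and 8.24 in saline (1.47 ± 0.72, adjusted p = 0.2270). Edn2, endothelin-2, a stress signal of photoreceptors, was at 11.61, 6.46 and 10.33 in CD34, against 10.66, 4.99 and 5.61 in saline (2.38 ± 1.28, adjusted p = 0.2838). High values of both thus occurred on CD34 replicates 1 and 3 and on saline replicate 1, the 3 arrays that were also lowest in ganglion cell genes within their own groups. P5 combination replicate 2 had Gfap at 11.36 and Edn2 at 5.82, with a ganglion cell list mean of 10.16. On combination replicate 3 these were 10.33, 8.86 and 9.25. A link between these genes was not tested. Lcn2, lipocalin-2, was at 12.15, 6.84 and 10.79 in CD34, against 8.59, 7.58 and 7.34 in saline (2.09 ± 1.13, adjusted p = 0.2856). Steap4, a metalloreductase induced by inflammation, was at 10.75, 6.56 and 10.26 in CD34, against 6.91, 6.38 and 6.30 in saline (2.66 ± 0.85, adjusted p = 0.0533). Each of these 4 genes passed in some fits that left out an array: Gfap without CD34 replicate 2 (difference 2.36, 0.0317) or saline replicate 1 (2.37, 0.0416), Edn2 without saline replicate 1 (4.17, 0.0343), Lcn2 without CD34 replicate 2 (3.64, 0.0282) and Steap4 without CD34 replicate 2 (3.98, 0.0012). Of the 22 listed members S100a6 passed higher and Gap43 lower, and the number higher was 10 without CD34 replicate 2, 3 without saline replicate 1, and 0 without CD34 replicate 3, saline replicate 2 or saline replicate 3.

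Chaperones of the endoplasmic reticulum were among the genes that rose. Of 22 genes of the unfolded protein and integrated stress response 5 rose and 0 fell (median 0.33), against 3.07% higher among all genes. The median difference of the list from the saline mean was 0.56, 0.15 and 0.25 on CD34 replicates 1, 2 and 3. The count was 3 without CD34 replicate 1 and 8 without CD34 replicate 2. Xbp1, the transcription factor of the unfolded protein response, was at 10.05, 9.98 and 9.9955 in CD34, against 8.98, 9.44 and 9.46 in saline (0.71 ± 0.13, adjusted p = 0.0029). Hspa5, the chaperone BiP, was at 12.97, 12.57 and 12.86 in CD34, against 12.17, 12.29 and 12.45 in saline (0.49 ± 0.09, adjusted p = 0.0028). Dnajb9, its co-chaperone, rose by 0.57 ± 0.12 (adjusted p = 0.0049). No array overlapped for these 3 genes, and their calls held without any single array. Of the 27 other arrays of the series, the lowest was at 8.98 for Xbp1 and 12.17 for Hspa5, the levels of saline replicate 1. For Xbp1 and Dnajb9, 0 CD34 arrays lay above all 27, whose medians were 9.73 and 10.44. For Hspa5 2 CD34 arrays did, and P5 ECFC was at 12.75, 12.78 and 12.61. Hsp90b1, the chaperone GRP94 (0.39 ± 0.10, adjusted p = 0.0178), lost its call without CD34 replicate 1 (0.1013) or saline replicate 1 (difference 0.25, 0.0976). Sdf2l1 (0.55 ± 0.16, adjusted p = 0.0398) kept it only without CD34 replicate 2 or 3, and its difference was 0.29 without CD34 replicate 1 (0.2658). Atf4, Ddit3 and Trib3, of the integrated stress arm, did not pass (0.10, 0.24 and 0.43).

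Antioxidant enzymes had 4 of 16 members higher, against 3.07% of all genes. Cat, catalase, was at 10.82, 10.90 and 10.86 in CD34, against 10.10, 10.46 and 10.34 in saline (0.56 ± 0.13, adjusted p = 0.0093). Gpx1, a glutathione peroxidase, was at 11.50, 11.79 and 11.46 in CD34, against 11.05, 11.12 and 10.82 in saline (0.59 ± 0.12, adjusted p = 0.0051). Both were higher on every CD34 array and held without any single array. Another Cat probe set differed by 0.30 and did not pass. Nqo1, a quinone reductase (0.66 ± 0.18, adjusted p = 0.0256), kept its call only without CD34 replicate 2 or saline replicate 2, with adjusted p from 0.0547 to 0.1236 otherwise. Gpx3, a secreted glutathione peroxidase, had a difference of 1.26 ± 0.37 (adjusted p = 0.0357) and lost its call without CD34 replicate 1 (difference 0.77, 0.2265), saline replicate 1 (0.0820) or saline replicate 3 (0.1425). The list count was 2 without saline replicate 3, and 2 higher and 1 lower without saline replicate 1. Of 15 p53 and apoptosis genes 2 rose, against the same 3.07%. Fas, the death receptor, was at 5.17, 5.88 and 6.16 in CD34, against 4.87, 4.50 and 4.38 in saline (1.16 ± 0.19, adjusted p = 0.0021). The size of the rise is uncertain at levels this low, and all 27 other arrays were at 4.87 or below. Ccng1, the p53 target cyclin G1, rose by 0.49 ± 0.13 (adjusted p = 0.0182), a call lost without CD34 replicate 2 (difference 0.28, 0.0913) or saline replicate 3 (0.0583).

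Genes of vessels, the target tissue of a vascular cell therapy in OIR, gave few calls. Of 20 endothelial markers 1 rose and 0 fell (median -0.15), but 0 rose and 5 fell without CD34 replicate 2 (median -0.44), and 0 rose and 3 fell with array weights. None passed without CD34 replicate 1, saline replicate 2 or saline replicate 3. Calls over all 12393 genes also grew in these settings, from 380 higher and 669 lower in the unweighted fit of all arrays. They were 567 higher and 887 lower without CD34 replicate 2, and 767 higher and 1511 lower with array weights. Whether endothelial genes fell more often than other genes in these settings was not tested. Of 10 VEGF ligands and receptors 0 passed in limma, with 1 at an unadjusted p under 0.05. Vegfa, the main hypoxia-induced vessel growth factor, was at 10.74, 9.76 and 10.002 in CD34, against 10.26, 10.31 and 10.32 in saline (-0.13 ± 0.18, adjusted p = 0.7334), and its difference was 0.07 without CD34 replicate 2 and -0.42 without CD34 replicate 1. Another Vegfa probe set went the other way (0.35) and did not pass, so the direction for this gene depends on the probe set. Pecam1, the endothelial adhesion molecule, was at 7.44, 8.35 and 7.93 in CD34, against 8.19, 8.14 and 8.11 in saline (-0.24 ± 0.17, adjusted p = 0.4467). Plvap, a diaphragm protein of leaky vessels, was the endothelial gene that passed, at 8.20, 8.07 and 7.5004 in CD34, against 7.44, 7.36 and 7.18 in saline (0.60 ± 0.17, adjusted p = 0.0278). Its call was lost without CD34 replicate 1 (0.1437), CD34 replicate 2 (0.0743), saline replicate 2 (0.0578) or saline replicate 3 (0.1173). Angpt2, which loosens mural cell contact (0.23 ± 0.31), the tip cell gene Esm1 (1.10 ± 0.48), Pdgfb, the endothelial recruiter of pericytes (0.09 ± 0.17), and the pericyte genes Pdgfrb (-0.23 ± 0.17), Rgs5 (0.13 ± 0.17) and Cspg4 (0.37 ± 0.18) did not pass. Mouse Cd34 itself was at 7.78, 8.19 and 7.15 in CD34, against 6.44, 7.40 and 7.74 in saline (0.51 ± 0.28, adjusted p = 0.29; -0.13 with array weights), and whether its probe set reads RNA of the injected cells was not tested.

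Of 16 pericyte and mural genes Acta2, smooth muscle actin, passed, while 1 rose and 2 fell without CD34 replicate 2. It was at 10.25, 11.51 and 10.90 in CD34, against 9.16, 10.14 and 8.48 in saline (1.62 ± 0.48, adjusted p = 0.0380), and its call was lost without CD34 replicate 2 (0.1209), CD34 replicate 3 (0.0766), saline replicate 1 (0.0812) or saline replicate 3 (0.1861). Another probe set for Acta2 went the other way (-0.35) and did not pass, so the direction for this gene depends on the probe set. Of 28 genes of hypoxia-inducible factor and glycolysis 2 rose and 1 fell, against 3.07% higher and 5.4% lower among all genes. Hk2, the hexokinase of photoreceptors and of hypoxic cells, was at 11.59, 10.90 and 11.21 in CD34, against 10.53, 10.26 and 10.52 in saline (0.80 ± 0.14, adjusted p = 0.0022), and this held without any single array. The 27 other arrays of the series ran from 10.26, the level of saline replicate 2, to 11.52, with a median of 11.10. Only 1 CD34 array lay above all of them, and P5 ECFC was at 11.11, 10.92 and 11.03. Car9, a carbonic anhydrase induced by hypoxia, was at 8.63, 5.97 and 5.97 in CD34, against 5.56, 4.76 and 5.16 in saline (1.69 ± 0.45, adjusted p = 0.0221). Its call was lost without CD34 replicate 1 (difference 0.81, 0.1300), saline replicate 2 (0.0834) or saline replicate 3 (0.0677). Mxi1, a MYC antagonist, fell by 0.42 ± 0.13 (adjusted p = 0.0398), with the call lost without CD34 replicate 2 (difference -0.23, 0.2244), CD34 replicate 3 (0.0592), saline replicate 2 (0.1255) or saline replicate 3 (0.1173). Of 24 cell cycle genes 3 rose, with Rrm2, a ribonucleotide reductase subunit, at 8.61, 8.37 and 7.88 in CD34, against 7.01, 7.09 and 6.93 in saline (1.28 ± 0.30, adjusted p = 0.0112), a call lost without CD34 replicate 1 (0.0520). Top2a, a topoisomerase (1.01 ± 0.29, adjusted p = 0.0309), kept its call only without CD34 replicate 3 or saline replicate 2, and Cdk1, the mitotic kinase (0.55 ± 0.15, adjusted p = 0.0289), only without CD34 replicate 3 or saline replicate 1. The cell cycle count was 0 without CD34 replicate 1, 1 without saline replicate 3, 2 without CD34 replicate 2 or saline replicate 2, and 5 without CD34 replicate 3.

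Genes of tissues outside the retina varied between arrays of the same group. Cryaa, the lens chaperone alpha-A-crystallin, was at 7.17, 14.20 and 14.16 in CD34, against 14.01, 13.87 and 11.57 in saline (-1.31 ± 1.31, adjusted p = 0.6326), and 0 of 16 lens genes passed in limma, with 0 at an unadjusted p under 0.05. Without CD34 replicate 1 the difference of Cryaa was 1.03, and without CD34 replicate 2, CD34 replicate 3 or saline replicate 3 it was -2.48, -2.47 and -2.10. With the lens gene mean as a covariate 1100 genes passed. Of 14 genes of cornea, conjunctiva and skin epithelium 1 rose, Perp, a desmosome protein, at 8.62, 10.10 and 9.51 in CD34, against 8.41, 8.79 and 7.75 in saline (1.09 ± 0.28, adjusted p = 0.0169). Its call was lost without CD34 replicate 2 (0.0799) or saline replicate 3 (0.1146), and 6 genes of this list passed without CD34 replicate 1, an array on which the list mean was 7.10, against 8.33 and 7.53 on CD34 replicates 2 and 3. Skeletal muscle, myelin, neutrophil and erythroid markers had 0 called in limma out of 14, 10, 12 and 5, with 3, 0, 1 and 0 at an unadjusted p under 0.05. The part of carried-over tissue in the other results was not tested.

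The CD34 retinas were next set against the other cell treatments of P5, which share the 3 CD34 arrays with the comparison above but no saline array. Doses differed, with 10000 cells in CD34, 100000 in ECFC and 110000 in the combination. Against P5 ECFC 877 genes passed (7.08%), 346 higher (2.79%) and 531 lower (4.28%) in CD34. Against the P5 combination 970 passed (7.83%), 441 higher (3.56%) and 529 lower (4.27%). With each array centred on its median, 419 were higher and 772 lower in the second comparison. Ganglion cell genes called lower numbered 11 of 14 in either comparison, and Slc17a6 differed by -2.96 from ECFC (adjusted p = 0.0043) and by -2.71 from the combination (0.0067), or by -1.80 without CD34 replicate 1 (0.0394). Slc17a6 was at 5.49, 9.76 and 6.71 in CD34, against 10.56, 10.05 and 10.22 in ECFC and 10.45, 10.59 and 9.06 in the combination. Melanin genes called higher numbered 7 of 9 against ECFC and 9 of 9 against the combination, and Gpnmb differed by 2.68 (adjusted p = 0.0043) and 3.69 (adjusted p = 3.58e-04). Bipolar genes called lower numbered 7 of 10 in each. Matrix genes called higher numbered 2 of 25 and 5 of 25, phagocyte genes 3 of 23 and 9 of 23, and microglia genes 0 of 21 in both. Xbp1, which was higher in CD34 than in saline, differed from ECFC by -0.01 and from the combination by -0.06, and did not pass (adjusted p = 0.99 and 0.89). The count against ECFC was 391 without ECFC replicate 1, 488 without ECFC replicate 2 and 533 without CD34 replicate 1. The count against the combination was 379 without combination replicate 2, 464 without combination replicate 1 and 641 without CD34 replicate 1.

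Finally the CD34 effect was compared between injection days. At P12, CD34 against saline gave 0 genes (0.0%) in limma, with 643 at an unadjusted p under 0.05. The difference between both contrasts, P5 minus P12, passed for 235 genes (1.9%), 50 positive (0.403%) and 185 negative (1.49%), or 83 and 144 with median centring. For Gpnmb it was 3.02 ± 0.75 (adjusted p = 0.0413): the levels at P12 were 7.15 ± 0.07 in CD34 and 7.26 ± 0.09 in saline (SD, n = 3 each). For Stmn2 it was -1.53 ± 0.39 (adjusted p = 0.0461), with P12 levels of 10.91 ± 0.09 in CD34 and 10.77 ± 0.02 in saline. Of the 14 ganglion cell genes 2 passed this test, Stmn2 and Rbpms, and of the 9 melanin genes 0. Gpnmb kept its call only without P5 CD34 replicate 2, P5 CD34 replicate 3 or P5 saline replicate 2, and Stmn2 only without P5 CD34 replicate 2 or P5 saline replicate 1. The count was 766 without P5 CD34 replicate 2, 128 and 142 without P5 CD34 replicates 1 and 3, and 142 and 36 without P5 saline replicates 2 and 3. It was 107, 22 and 28 without P12 CD34 replicates 1, 2 and 3, and 74, 43 and 13 without P12 saline replicates 1, 2 and 3. If the design text holds, injection day and collection day cannot be told apart here.

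**Figure D5:**
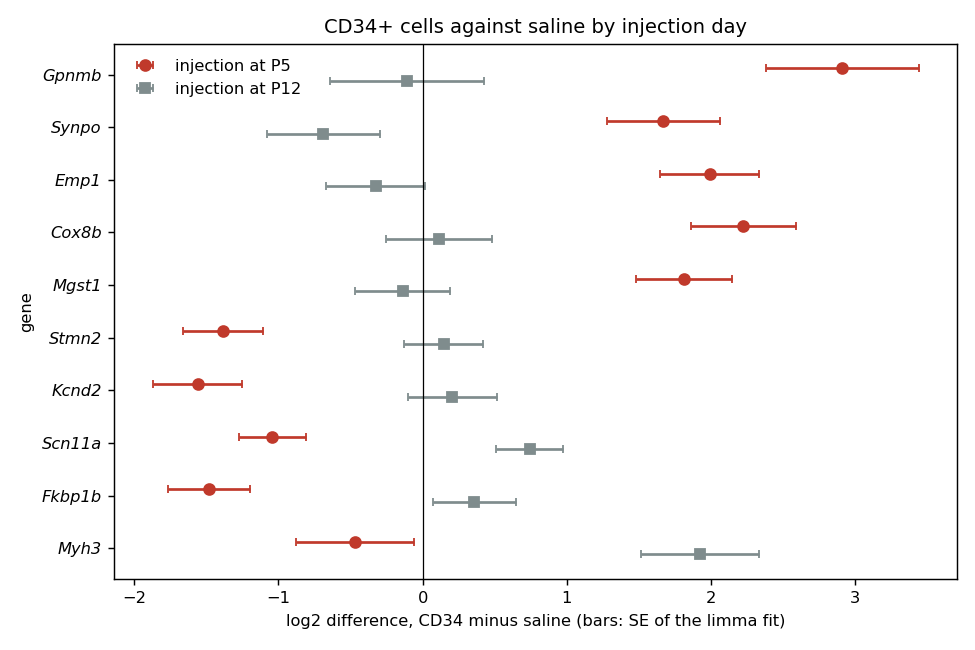
Log2 difference, CD34 minus saline, with the SE of the limma fit, for the 10 genes with the largest difference between injection days in either direction; red circles are injection at P5 and gray squares injection at P12. For Gpnmb, Emp1, Cox8b and Mgst1 the P5 difference lies between 1.81 and 2.91 and the P12 difference between -0.32 and 0.11, and for Myh3, a muscle myosin, the P12 difference of 1.92 exceeds that at P5.

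Genes that OIR itself raises or lowers were read in the P5 CD34 and P5 saline contrast. No array is shared in the group means, but both contrasts take each gene's spread from the same fit, so their calls are not independent. Untreated OIR against untreated normoxia called 4.56% of genes, with 445 higher (3.59%) and 120 lower (0.968%), or 395 and 339 with median centring and 447 and 246 with quantile normalization. Of the 445, 75 were called higher and 4 lower in P5 CD34 against P5 saline, with a median difference of 0.25. Of the 120, 2 were called higher and 15 lower, with a median of -0.12. Over all genes these shares were 3.07% higher and 5.4% lower. The 565 calls in OIR became 242 without OIR replicate 3 and 324 without normoxia replicate 3.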

How the data were processed

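The deposited table holds log2 expression values of 22690 probe sets on 30 arrays, normalized by the authors; Partek is named without a version in the submitters' processing notes, with summarisation, background correction and normalization not given in the sources used here. Per the labels' protocols, RNA from 1 retina per pup was amplified (Ovation PicoSL WTA V2) and biotin-labelled. No further normalization was applied here. Probe sets with 1 symbol (20380, of which 20351 were matched to RefSeq GRCm38.p6 by Entrez ID) were kept, and each gene was represented by its probe set with the highest mean, leaving 12393 genes.

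Groups came from sample titles. limma 3.58.1 in R 4.3.3 was fitted with 1 mean per group over all 30 arrays, followed by eBayes and Benjamini-Hochberg adjustment, and a gene passed at an adjusted p under 0.05. P-values measure the spread between retinas labelled as separate pups, pooled over all 10 groups, and 3 arrays per group limit the precision. Genes with an SD over 1 numbered 265 in P5 CD34 and 117 in P5 saline, against 12 in P12 CD34 and 6 in P12 saline. Pooling with such quieter groups can make the SE and p-values of the P5 comparison too small. The file carries no detection calls and no scan batch. Other fits used quantile normalization, median centring, all probe sets, brighter genes only (without the dimmest 30%), the 6 arrays alone, array weights, a replicate block, trend and robust eBayes, a lens covariate, and each array left out in turn. The procedure was tested on simulated data in which all arrays of a gene had the same spread. That test therefore cannot show whether the p-values hold for groups that vary more, such as P5 CD34.

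The comparison, gene lists and named genes were chosen with earlier results of these data known. Named genes were the 12 largest non-overlapping changes in each direction and the 5 largest in each direction of other comparisons, both among genes that passed. Added to these were up to 4 per list by moderated t, the genes with the largest range over the CD34 arrays, and a fixed set. Vipr2, Edn2, Thy1, Nefl, Nefh, Opn4, Isl2, Chrna6, Ebf3, Pou4f3, Trpm1 and Gpr143 as pigment genes, Rpe65, Col15a1, Col18a1, Col4a1, Col4a2, Lama4, Nid1, Igf1, Igf2, Sdf2l1, Atf4, Ddit3 and Trib3 were named after their values were seen. For promoters, both strands of each RefSeq window were searched.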

Additional observations from a re-analysis of the deposited data

Results flagged for a closer look

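The effect of CD34+ cells differed between injection days for 235 genes in limma's test of P5 minus P12, and the 10 with the largest differences are given here on the log2 scale. Gpnmb, a melanosome and phagocyte glycoprotein, differed by 3.02 ± 0.75 (adjusted p = 0.0413), with CD34 minus saline at 2.91 for P5 and -0.11 ± 0.53 for P12, and passed in 3 of 12 fits that left out 1 array. Synpo, an actin-binding protein, differed by 2.36 ± 0.56 (adjusted p = 0.0352), with CD34 minus saline at 1.67 for P5 and -0.69 ± 0.39 for P12, and passed in 6 of 12 fits that left out 1 array. Emp1, an epithelial membrane protein, differed by 2.31 ± 0.48 (adjusted p = 0.0266), with CD34 minus saline at 1.99 for P5 and -0.32 ± 0.34 for P12, and passed in 8 of 12 fits that left out 1 array. Cox8b, a respiratory chain subunit, differed by 2.11 ± 0.52 (adjusted p = 0.0399), with CD34 minus saline at 2.22 for P5 and 0.11 ± 0.37 for P12, and passed in 2 of 12 fits that left out 1 array. Mgst1, a glutathione transferase, differed by 1.95 ± 0.47 (adjusted p = 0.0360), with CD34 minus saline at 1.81 for P5 and -0.14 ± 0.33 for P12, and passed in 2 of 12 fits that left out 1 array.

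The other genes had a negative difference. Myh3, an embryonic muscle myosin, differed by -2.39 ± 0.58 (adjusted p = 0.0370), with CD34 minus saline at -0.47 for P5 and 1.92 ± 0.41 for P12, and passed in 4 of 12 fits that left out 1 array. Fkbp1b, a calcium channel regulator, differed by -1.84 ± 0.41 (adjusted p = 0.0319), with CD34 minus saline at -1.48 for P5 and 0.36 ± 0.29 for P12, and passed in 4 of 12 fits that left out 1 array. Scn11a, a sodium channel, differed by -1.78 ± 0.33 (adjusted p = 0.0129), with CD34 minus saline at -1.04 for P5 and 0.74 ± 0.23 for P12, and passed in 12 of 12 fits that left out 1 array. Kcnd2, a potassium channel, differed by -1.77 ± 0.44 (adjusted p = 0.0413), with CD34 minus saline at -1.56 for P5 and 0.21 ± 0.31 for P12, and passed in 2 of 12 fits that left out 1 array. Stmn2, a microtubule regulator, differed by -1.53 ± 0.39 (adjusted p = 0.0461), with CD34 minus saline at -1.38 for P5 and 0.15 ± 0.28 for P12, and passed in 2 of 12 fits that left out 1 array. For Myh3 the P12 level was 7.70 ± 1.35 in CD34 and 5.78 ± 0.05 in saline (SD, n = 3 each), so the P12 CD34 arrays varied widely.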

How the results depend on the processing

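The number of genes passing for P5 CD34 against P5 saline was 1049, and 1814 over all probe sets, 2278 with array weights and 0 with the 6 arrays alone (1404 at an unadjusted p under 0.05). Leaving out 1 array gave 461 to 1454. Quantile normalization, median centring, the lens covariate, trend and robust fitting and the dim-gene filter gave 1169, 1136, 1100, 1104 and 1117. Against P5 ECFC the counts were 1487 over all probe sets, 2127 with array weights and 391 to 1239 without 1 array. Against the P5 combination they were 1659, 2105 and 379 to 1339. For the difference between injection days array weights gave 1890, and leaving out 1 array gave 13 to 766. Untreated OIR against normoxia gave 935 over all probe sets and 242 to 615 without 1 array. The cause of these shifts was not tested. The 6-array fit has fewer samples and also takes the spread from P5 CD34 and P5 saline alone, and these differences cannot be told apart. The probe-set fit counts several probe sets per gene.

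Of 96 called genes named or followed here, 90 kept the call with array weights, 91 with quantile normalization or the lens covariate, 93 with median centring, and 0 with the 6 arrays alone. Leaving out CD34 replicates 1, 2 or 3 kept 53, 81 and 75 of them, and leaving out saline replicates 1, 2 or 3 kept 75, 71 and 47. Of these called genes 49 had further probe sets, 87 in all. Of the 87, 86 went the same way as the chosen probe set, but only 44 of those passed. The sign of some differences that had not passed reversed: Cryaa was 1.06 with array weights and -2.48 to 1.03 without 1 array, Cd34 was -0.13 with array weights, Vegfa ran from -0.419 to 0.071, Rgs5 from -0.15 to 0.38 and Pdgfrb from -0.48 to 0.05. Pdgfb ran from -0.089 to 0.19. The replicate block gave 1147 genes, but same-numbered samples were not shown to be paired, since the residuals of CD34 and saline arrays of the same number correlated at -0.15, 0.26 and -0.40. The file gives no detection calls, so folds of genes with low values, such as Fas and Car9, are uncertain.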
